A study of Mus musculus with 16 samples.

Results

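The genes described here carry the adrenergic signal of fat cells, from receptor to cyclic AMP (cAMP) and its kinase. They are the receptors Adrb1, Adrb3, Adra1a and Adra2a, the stimulatory G protein gene Gnas, the adenylyl cyclase Adcy3, the protein kinase A genes Prkaca and Prkar2b, and the phosphodiesterase Pde3b. All probes whose RefSeq accession maps to one of these 9 symbols were taken. Of the 9 genes, 8 had at least 1 probe, with 15 of the 28223 named probes of the array, and all 8 were among the 15468 genes tested. Adrb3 had no probe by this rule and is not analysed here.

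The study measured total RNA of brown and white adipose tissue of male mice on 16 Agilent arrays with 1 colour. The 4 groups of 4 arrays were brown fat of mice with an adipose-tissue-specific knockout of the glucocorticoid receptor (AdipoKO_BAT), brown fat of control mice (CTL_BAT), white fat of the knockout mice (AdipoKO_WAT) and white fat of the control mice (CTL_WAT). The series' text calls the controls wild-type and the 4 arrays of a group biological replicates. The Cre driver, the deleted exon, the strain, the age and the white depot are not given in the sources used here. Where arrays of a group agreed within the error that the scanner assigns to each spot, their mean was counted as 1 sample, which left 9 distinct samples: 2 of knockout brown fat (array 1, and arrays 2, 3 and 4), 3 of control brown fat (array 1, arrays 2 and 3, array 4), 2 of knockout white fat (array 1, and arrays 2, 3 and 4) and 2 of control white fat (arrays 1 and 4, arrays 2 and 3). P-values measure the spread between these samples.

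In fat, noradrenaline from sympathetic nerves binds beta receptors, which act through the stimulatory G protein on adenylyl cyclase. The cAMP formed releases the catalytic subunit of protein kinase A from its regulatory subunit, and the kinase then drives lipolysis and, in brown fat, heat production. Alpha-2 receptors couple to inhibitory G proteins and restrain the cyclase, alpha-1 receptors act through the Gq family, and phosphodiesterases end the signal by hydrolysing cAMP. The glucocorticoid receptor, encoded by Nr3c1, is a transcription factor that binds DNA when it holds a glucocorticoid.

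Promoters of Adra2a and Gnas are shown because Gnas and Adra2a were the members whose knockout and control arrays did not overlap in at least 1 fat. Not printed are 1 Gnas promoter without a core site and 1 that overlaps the first Gnas promoter shown. Each line gives the 250 bases before a RefSeq transcription start of assembly GRCm38.p6, on the gene's strand, and capitals mark the core sites TGACG (of the cAMP response element, CGTCA on the other strand) and AGAACA (of the glucocorticoid response element, TGTTCT on the other strand).
Adra2a, chr19:54045009-54045258, plus strand: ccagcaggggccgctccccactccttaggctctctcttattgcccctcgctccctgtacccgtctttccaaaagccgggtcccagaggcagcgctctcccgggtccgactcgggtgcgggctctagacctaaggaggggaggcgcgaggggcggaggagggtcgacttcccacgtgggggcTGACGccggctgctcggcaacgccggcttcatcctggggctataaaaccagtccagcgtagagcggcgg
Gnas, chr2:174327518-174327767, plus strand: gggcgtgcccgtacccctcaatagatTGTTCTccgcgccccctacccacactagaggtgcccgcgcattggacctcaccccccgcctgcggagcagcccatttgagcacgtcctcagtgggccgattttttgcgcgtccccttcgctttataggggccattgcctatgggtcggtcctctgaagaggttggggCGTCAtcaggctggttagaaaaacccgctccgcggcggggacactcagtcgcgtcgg
Gnas, chr2:174329756-174330005, plus strand: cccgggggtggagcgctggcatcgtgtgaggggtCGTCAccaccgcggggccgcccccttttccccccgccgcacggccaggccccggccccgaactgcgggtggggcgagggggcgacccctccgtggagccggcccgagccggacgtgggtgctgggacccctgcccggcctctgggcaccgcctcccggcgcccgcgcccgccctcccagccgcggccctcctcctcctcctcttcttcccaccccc

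RefSeq promoters were found for 6 of the 9 genes, 12 promoters in all, and both strands were searched. The cAMP core site TGACG lay in the Adra2a promoter 69 bases before the start, in that of Adrb1 90 bases before it, and in 1 of 2 promoters of Prkaca at 120 and 6 bases. In Gnas it lay in 3 of 4 promoters at 38, 57 and 216 bases, of which 38 and 57 are the same site in overlapping promoters. It occurs in 17.8% of the 32851 promoters of the table. AGAACA lay only in the 2 overlapping promoters of Gnas, as the same site 205 and 224 bases before their starts, and occurs in 16.1% of all promoters. The full palindromes TGACGTCA and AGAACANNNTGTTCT, which occur in 1.5% and 0.009% of all promoters, were in none of the 12. These matches describe letters in the sequence and not binding.

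Levels are given as the log2 signal of a probe minus the 75th percentile of its array, so 0 is the 75th percentile, and a difference of 1 is a 2-fold difference. Levels of different probes are not compared with each other. Between 67.3% and 77.0% of spots were well above background on each array, and the probes that stand for the 8 genes were so on all 16 arrays. The targeted gene Nr3c1 lay between 1.58 and 1.82 on the 4 knockout brown arrays against 2.34 to 2.70 on the control brown arrays, and between 1.30 and 1.58 on the knockout white arrays against 2.08 to 2.49 on the control white arrays. Its difference was -0.85 ± 0.21 (SE) in brown and -0.89 ± 0.23 in white fat, with adjusted p = 0.620 and 0.411 (limma, Benjamini-Hochberg over all genes). The other kept probes of Nr3c1 gave -0.35, -0.64 and -0.81 in brown fat. In white fat the same probes gave -0.99, -0.23 and -1.10, so the loss was not alike on all probes. Whether any of its probes lies in the deleted part is not given in the sources used here.

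Control brown sample 2-3 and knockout white sample 2-3-4 stood apart in cell type markers, so values are given with and without them. The mean of 11 brown adipocyte markers was 2.57 and 2.13 in the knockout brown samples, against 3.07, 0.89 and 3.75 in the control brown samples. The low sample, of control brown arrays 2 and 3, had the thermogenic marker Ucp1 at -0.75, the lowest of the control brown samples, against a highest of 8.13. That Ucp1 level is close to those of the white samples, which lay between -2.44 and -0.92. The mean of the 11 markers was -1.26 to -0.27 in the white samples, below that of every brown sample. The lowest control brown sample was above every white sample for Cox7a1, Cox8b, Ppargc1a and Lhx8. It was not so for Cidea, Dio2, Elovl3, Prdm16, Ebf2 and Zic1. The mean of 16 adipocyte markers was 6.25 in knockout white sample 1 and 4.93 in knockout white sample 2-3-4, against 6.72 and 6.48 in the control white samples. The mean of 15 T, B and NK cell markers was 0.44 and 2.05 in the knockout brown samples against -1.05, -2.65 and -3.74 in the control brown samples. It was -1.47 in knockout white sample 1 and 2.62 in sample 2-3-4, against -1.88 and 0.48 in the control white samples. The mean of 7 mesothelial markers was 1.54 in knockout white sample 1 and -2.27 in sample 2-3-4, against 1.85 and 0.92 in the control white samples. In bulk tissue, fewer cells of a type and less RNA per cell cannot be told apart. All 15 skeletal muscle markers were called higher in brown than in white fat in both genotypes, with medians of 9.34 in knockouts and 10.87 in controls. Of all genes, 1.29% were called higher in brown in knockouts and 3.89% in controls. Myot and Pvalb passed the filter on dim probes only through the brown groups, where they were then called higher.

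None of the 8 genes passed the threshold of 0.05 in any of the 5 comparisons (limma over 15468 genes with 5 residual degrees of freedom). In knockout against control, 0% of all genes were called in brown and 0% in white fat. At an unadjusted p under 0.05 there was 1 of 8 genes in brown fat (Adra1a) and 1 of 8 in white fat (Gnas), where 7.01% and 9.96% of all genes passed. The median knockout difference of the 8 genes was -0.24 in brown and -0.62 in white fat, where the medians of all genes were -0.12 and -0.03. With every array counted as a separate sample, limma called 2 of 8 genes in brown fat (Gnas and Adra2a) and 30.6% of all genes. In white fat it then called 4 of 8 (Gnas, Adra2a, Prkaca and Prkar2b) and 44.8% of all genes. With the replicate number as a block on these arrays, 2 of 8 in brown and 6 of 8 in white fat were called, and 32.2% and 46% of all genes. Arrays of the 2 genotypes did not overlap for 1 of 8 genes in brown fat (Gnas) and 2 of 8 in white fat (Gnas and Adra2a), as held for 27.8% and 29.4% of all genes.

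**Figure D1:**
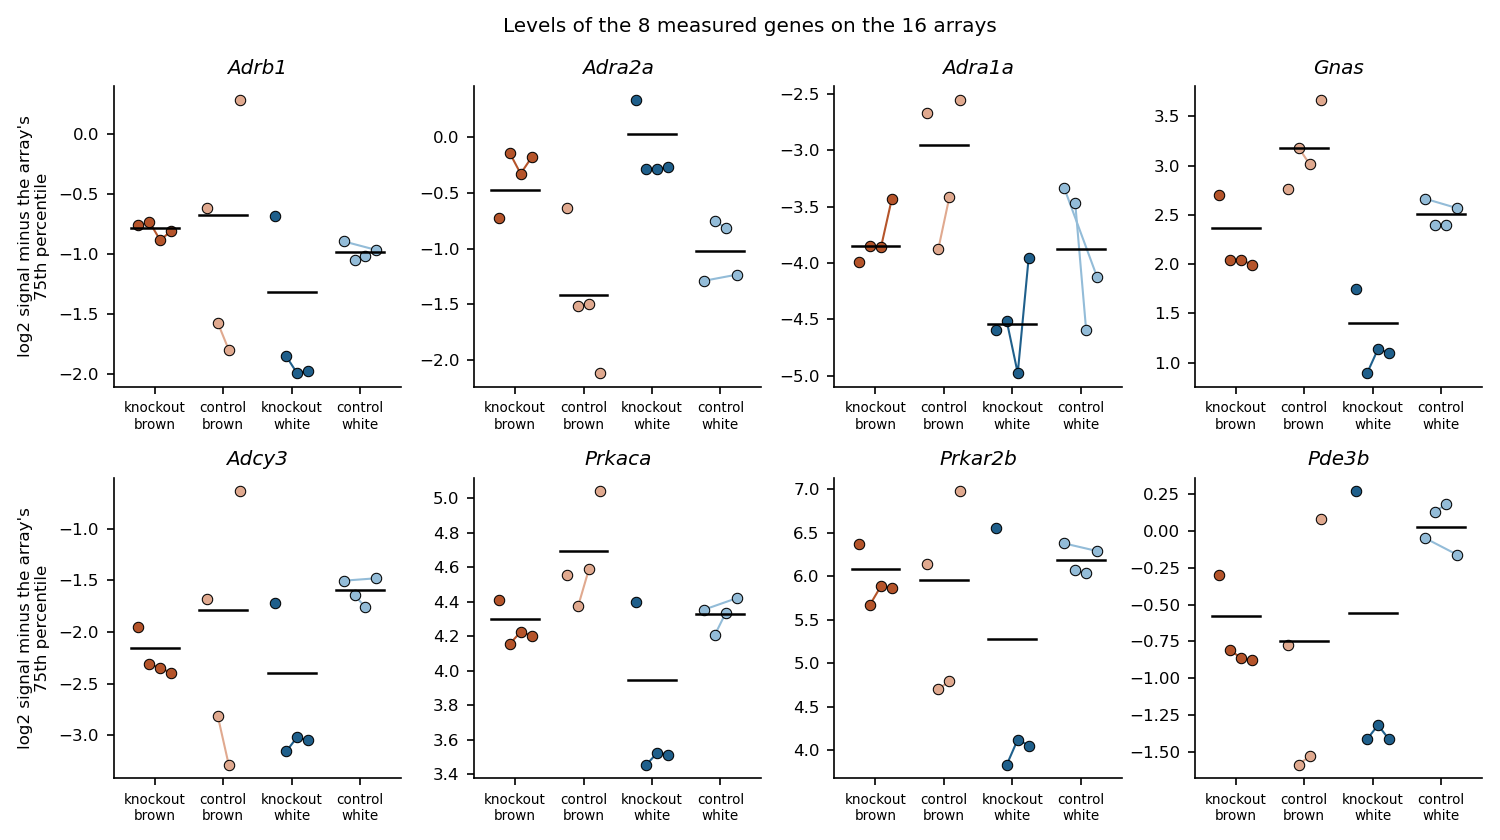
Level of the 8 measured genes on each of the 16 arrays, as log2 signal minus the 75th percentile of the array, with the 4 groups on the horizontal axis. Points are arrays, lines join arrays counted as 1 sample, and black bars are the means of the 2 or 3 samples of a group. Gnas is lower on all knockout arrays than on all control arrays of the same fat. Prkar2b, Adcy3, Adrb1 and Pde3b vary widely within the control brown and knockout white groups, and less within the control white and knockout brown groups.

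Adrb1 encodes the beta-1 adrenergic receptor, which couples to the stimulatory G protein. Its levels were -0.76, -0.74, -0.89 and -0.81 on the knockout brown arrays 1 to 4, against -0.62, -1.57, -1.80 and 0.28 on the control brown arrays. In white fat they were -0.69, -1.85, -1.99 and -1.98 on the knockout arrays against -0.90, -1.05, -1.01 and -0.97 on the control arrays. The knockout arrays lay within the range of the control arrays in brown fat, and in white fat array 1 was above the controls and arrays 2 to 4 below them. The knockout difference of Adrb1 was -0.11 ± 0.59 in brown fat (adjusted p = 0.952, limma) and -0.33 ± 0.65 in white fat (adjusted p = 0.830, limma). Without control brown sample 2-3 the brown difference was -0.61, and without knockout white sample 2-3-4 the white difference was 0.30. The second probe of Adrb1 gave -0.49 and -0.47.

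Adra2a encodes the alpha-2A receptor, which signals through inhibitory G proteins. It was at -0.73, -0.14, -0.33 and -0.18 on the knockout brown arrays, against -0.63, -1.51, -1.49 and -2.12 on the control brown arrays. On the white arrays it was at 0.34, -0.28, -0.29 and -0.27 in knockouts, against -1.29, -0.75, -0.82 and -1.23 in controls. The white groups did not overlap, with knockouts higher, as held for 11.1% of all genes, and in brown fat only control array 1 was above a knockout array. The difference was 0.95 ± 0.46 in brown fat (adjusted p = 0.620, limma) and 1.05 ± 0.50 in white fat (adjusted p = 0.518, limma). The lymphocyte markers were higher in the knockout means of both fats. Knockout white sample 1, the higher in Adra2a, had a lymphocyte mean of -1.47, within the control white range of -1.88 to 0.48. Knockout brown sample 2-3-4 was the higher of its group in both. The part of lymphocytes in the Adra2a differences was not tested. Both knockout samples of Adra2a lay above the control mean in each fat, by 0.69 and 1.21 in brown and by 1.36 and 0.74 in white fat. On the slides that held both genotypes, with 2 arrays of each, the differences were 1.38 in brown and 1.06 in white fat. The brown slide did not hold control brown sample 1, which had the highest Adra2a of the controls. A second probe of Adra2a gave 0.85 and 0.96, while the third probe, which was dim and well above background on 1 of 4 knockout white arrays, gave 0.33 and -0.45.

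Adra1a encodes the alpha-1A receptor, which signals through Gq proteins and calcium. Its levels were -3.99, -3.85, -3.86 and -3.43 on the knockout brown arrays, against -2.67, -3.87, -3.42 and -2.55 on the control brown arrays. They were -4.60, -4.52, -4.98 and -3.95 on the knockout white arrays, against -3.33, -3.46, -4.59 and -4.12 on the control white arrays. The groups overlapped in both fats. The difference was -0.90 ± 0.35 in brown fat (unadjusted p = 0.0370, adjusted p = 0.620, limma) and -0.66 ± 0.38 in white fat (adjusted p = 0.556, limma). Centred on the adipocyte markers, which raises the white difference of every gene by the same amount, that of Adra1a was 0.35. Its second probe gave -0.81 in brown and -1.62 in white fat, where it was well above background on 1 of 4 knockout arrays.

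Gnas encodes the alpha subunit of the stimulatory G protein, the link between beta receptors and the cyclase. Its levels were 2.70, 2.04, 2.04 and 1.99 on the knockout brown arrays, against 2.76, 3.18, 3.01 and 3.67 on the control brown arrays. In white fat they were 1.75, 0.89, 1.14 and 1.10 on the knockout arrays against 2.66, 2.40, 2.40 and 2.57 on the control arrays. Every knockout array was below every control array of the same fat, narrowly so in brown fat, where array 1 of each group differed least. Knockout arrays were lower without overlap for 16.4% of all genes in brown and 18.3% in white fat. Such a lack of overlap, with knockouts lower in both fats, held for 1 of the 8 genes and for 6.84% of all genes. The difference was -0.81 ± 0.37 in brown fat (adjusted p = 0.620, limma) and -1.11 ± 0.40 in white fat (unadjusted p = 0.0282, adjusted p = 0.464, limma).

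The knockout samples of Gnas differed from the control mean by -0.47 and -1.15 in brown fat and by -0.75 and -1.46 in white fat. On the slides that held both genotypes, with 2 arrays of each, the difference was -0.97 in brown and -1.16 in white fat. The brown slide did not hold control brown sample 1, which had the lowest Gnas of the controls. Centred on the mean of the 16 adipocyte markers, which were themselves lower in the knockout means, the difference was -0.41 in brown and -0.10 in white fat. The array holds 3 probes of Gnas, each with its own RefSeq transcript accession. The other 2 failed the filter on dim probes and were well above background on at most 3 of 4 arrays of any group.

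Adcy3 encodes an adenylyl cyclase that makes cAMP. Its levels were -1.95, -2.31, -2.35 and -2.39 on the knockout brown arrays, against -1.68, -2.81, -3.28 and -0.64 on the control brown arrays. On the white arrays they were -1.72, -3.16, -3.02 and -3.05 in knockouts, against -1.50, -1.64, -1.76 and -1.48 in controls. The knockout brown arrays lay inside the control range, and knockout white array 1 was within the range of the control white arrays while arrays 2 to 4 were below it. The difference was -0.37 ± 0.70 in brown fat (adjusted p = 0.840, limma) and -0.80 ± 0.77 in white fat (adjusted p = 0.680, limma). The second probe of Adcy3 gave -0.19 and -0.83.

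Prkaca encodes the catalytic subunit C-alpha of protein kinase A. It was at 4.41, 4.16, 4.23 and 4.20 on the knockout brown arrays, against 4.55, 4.37, 4.59 and 5.04 on the control brown arrays. On the white arrays it was at 4.40, 3.46, 3.53 and 3.51 in knockouts, against 4.35, 4.21, 4.34 and 4.42 in controls. In brown fat the groups overlapped only through knockout array 1 and control array 2, and in white fat knockout array 1 lay inside the control range and the others below it. The difference was -0.39 ± 0.32 in brown fat (adjusted p = 0.657, limma) and -0.38 ± 0.35 in white fat (adjusted p = 0.666, limma), and 0.07 in white fat without knockout sample 2-3-4.

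Prkar2b encodes the regulatory subunit RII-beta, the form of protein kinase A typical of fat. Its levels were 6.36, 5.67, 5.88 and 5.87 on the knockout brown arrays, against 6.14, 4.70, 4.79 and 6.97 on the control brown arrays. In white fat they were 6.55, 3.83, 4.12 and 4.05 on the knockout arrays against 6.38, 6.06, 6.03 and 6.29 on the control arrays. The knockout brown arrays lay inside the control range, while knockout white array 1 was above all white controls and arrays 2 to 4 were below all of them. The difference was 0.13 ± 0.85 in brown fat (adjusted p = 0.958, limma) and -0.91 ± 0.94 in white fat (adjusted p = 0.697, limma). Its white knockout samples differed from the control mean by 0.36 (sample 1) and -2.19 (sample 2-3-4).

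Pde3b encodes the phosphodiesterase through which insulin lowers cAMP in fat cells. Its levels were -0.30, -0.81, -0.86 and -0.88 on the knockout brown arrays, against -0.77, -1.59, -1.53 and 0.08 on the control brown arrays. On the white arrays they were 0.27, -1.41, -1.32 and -1.41 in knockouts, against -0.05, 0.13, 0.19 and -0.16 in controls. The knockout brown arrays lay inside the control range. The split of the white knockout arrays was the same as for Prkar2b, with array 1 above all controls and the others below. The difference was 0.18 ± 0.61 in brown fat (adjusted p = 0.918, limma) and -0.58 ± 0.67 in white fat (adjusted p = 0.724, limma). The white knockout samples differed from the control mean by 0.24 and -1.41.

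Without control brown sample 2-3, the knockout difference in brown fat was -0.85 for Gnas, 0.91 for Adra2a, -1.24 for Adra1a, -1.0 for Adcy3, -0.49 for Prkaca, -0.47 for Prkar2b and -0.23 for Pde3b. Prkar2b and Pde3b thus turned from a higher to a lower knockout mean. Without knockout white sample 2-3-4, the difference in white fat was -0.75 for Gnas, 1.36 for Adra2a, -0.72 for Adra1a, -0.12 for Adcy3, 0.36 for Prkar2b and 0.24 for Pde3b. Prkar2b, Pde3b, Prkaca and Adrb1 then had a higher knockout mean, and Gnas, Adra2a, Adra1a and Adcy3 kept their sign. No member was called in either case.

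**Figure D2:**
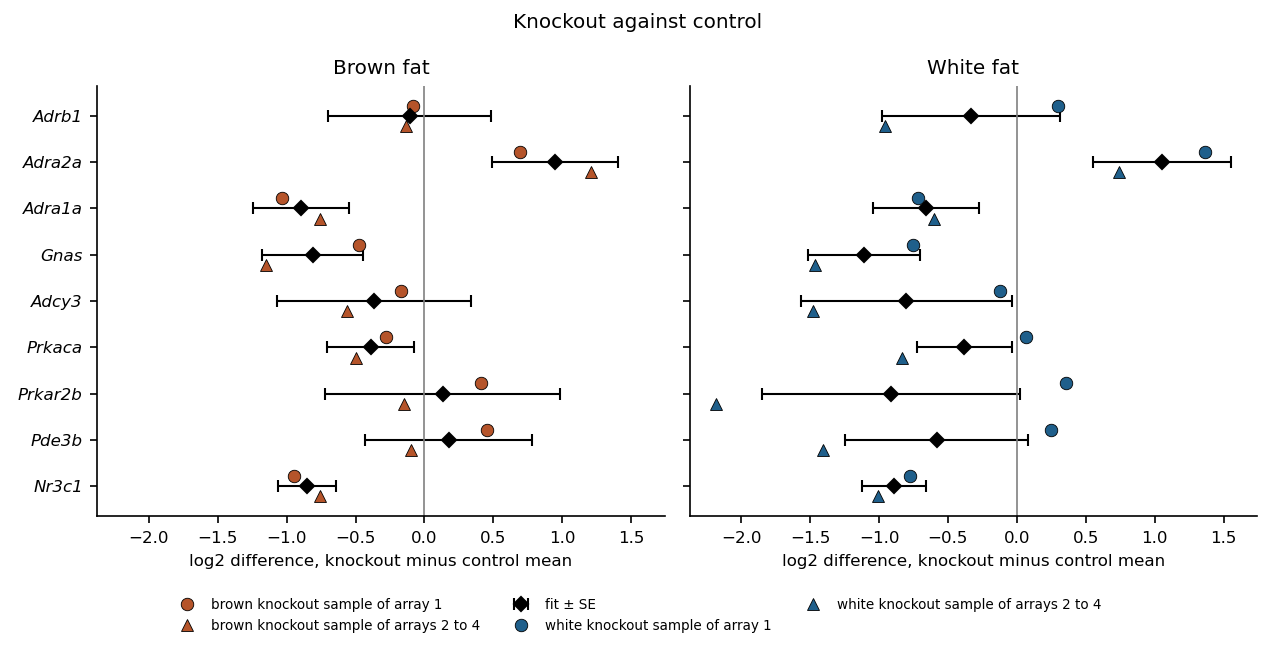
Log2 difference of knockout from control (horizontal axis) for the 8 genes and Nr3c1 in brown (left) and white fat (right). Diamonds with bars are the limma estimate ± SE, circles the knockout sample of array 1 and triangles the knockout sample of arrays 2 to 4, each minus the control mean. Gnas, Adra1a, Adcy3 and Nr3c1 are below 0 and Adra2a above 0 in all 4 knockout samples, while Prkar2b in white fat spans 0.36 to -2.19.

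The split of the knockout white samples was shared by several of the genes. Adrb1, Pde3b, Prkaca and Prkar2b, 4 of 8, had knockout sample 2-3-4 below both control samples and sample 1 not below them. This held for 24.8% of all genes. The same sample had the lowest adipocyte mean and the highest lymphocyte mean of the white samples, and the part of either in these differences was not tested. The control brown samples were also ordered alike in 6 of 8 genes (Adcy3, Adra1a, Adrb1, Pde3b, Prkaca and Prkar2b), with sample 4 highest and sample 2-3 lowest, as in 20.7% of all genes. The adipocyte and brown adipocyte means had the same order, at 6.42 and 3.75 in sample 4, 6.19 and 3.07 in sample 1, and 5.83 and 0.89 in sample 2-3. Both orders together held for 4 of 8 genes and 5.84% of all genes. All of these orders were picked from the values of these same genes, so the shares describe the array and are no test.

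Prkar2b minus the adipocyte mean was 0.30 in knockout white sample 1 and -0.93 in sample 2-3-4, against -0.39 and -0.43 in the controls, so sample 2-3-4 was still the lowest. Pde3b minus the adipocyte mean was -5.98 and -6.32 in the knockout white samples, against -6.82 and -6.32 in the controls, and sample 2-3-4 was then level with a control. Gnas minus the adipocyte mean was -4.50 and -3.89 in the knockout white samples, against -4.10 and -4.08 in the controls, and was no longer lower in both. Adra2a minus the adipocyte mean was -5.91 and -5.21 in the knockout white samples, against -7.98 and -7.26 in the controls, a wider gap than without this centring. The adipocyte mean itself was 6.25 and 4.93 in the knockout white samples, against 6.72 and 6.48 in the controls. This centring thus raises the white knockout difference of every gene by the same amount, so the shifts of Gnas and Adra2a are not particular to them.

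**Figure D3:**
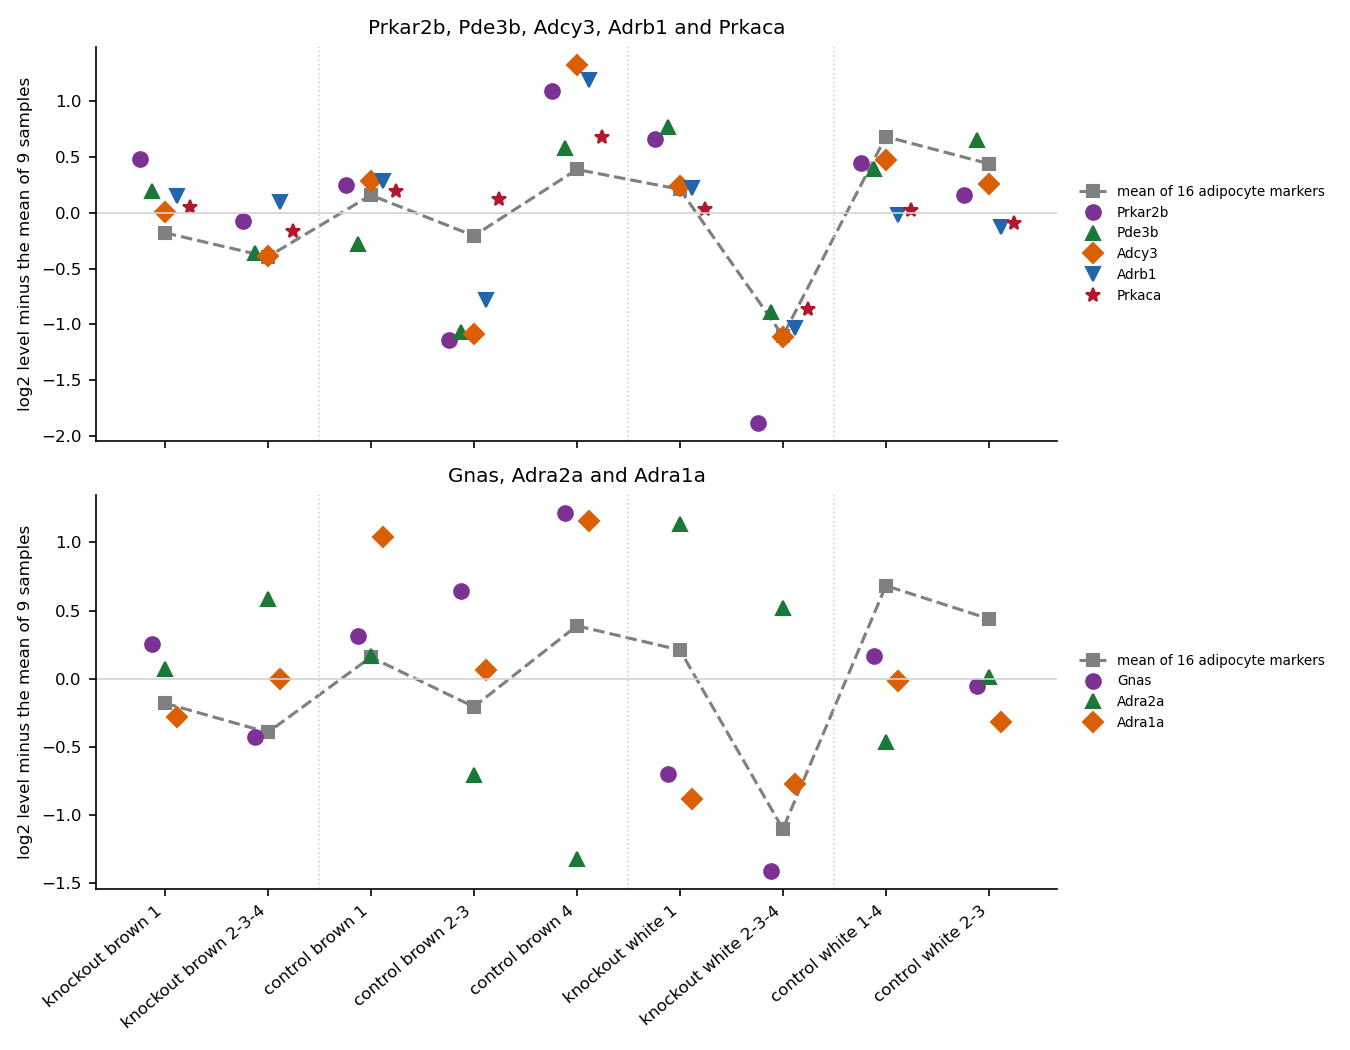
Level of each gene in the 9 samples, minus its own mean over the 9 (vertical axis, log2), beside the mean of 16 adipocyte markers treated the same way (grey squares). Prkar2b, Pde3b, Adcy3, Adrb1 and Prkaca (above) are low with the adipocyte markers in knockout white sample 2-3-4. Gnas and Adra1a (below) are also under their own means in that sample, whereas Adra2a (below) is above its own mean in both knockout white samples.

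Brown was also compared with white fat in each genotype. No slide held brown and white arrays of the same genotype. Fat and slide can therefore not be told apart in these comparisons, here and for the pathway genes below. A slide block links the fats of a genotype only through arrays of the other genotype. In knockout mice 1.49% and in control mice 5.03% of all genes were called, and 0 of the 8 genes in either. At an unadjusted p under 0.05 there was 1 of 8 in knockouts (Gnas) and 1 of 8 in controls (Adra1a), where 15.3% and 22.8% of all genes passed. With 16 arrays as separate samples limma called 1 of 8, Gnas, in each genotype, with 25.7% of all genes in knockouts and 39.3% in controls, and with the replicate block 1 of 8 and 25.2% and 39.9%. Brown and white arrays did not overlap, in either direction, for 1 of 8 genes in each genotype, and for 26.4% of all genes in knockouts and 48.3% in controls. The brown minus white difference of Gnas was 0.97 ± 0.40 in knockouts (unadjusted p = 0.0472, adjusted p = 0.319, limma) and 0.67 ± 0.37 in controls (adjusted p = 0.328, limma). Between knockout samples of the same number, Gnas was higher in brown by 0.95 (sample 1) and 0.98 (sample 2-3-4). With that number as a block for the knockout samples, a fit added after seeing the data, the brown minus white difference of Gnas in knockouts was 0.97 ± 0.31 (adjusted p = 0.144, limma), and 0 of 8 genes and 4.01% of all genes were called. Its brown and white arrays did not overlap in either genotype, brown being higher, as held for 13% of all genes in knockouts and 22.1% in controls. No member was lower in brown without overlap, as 13.4% of all genes were in knockouts and 26.2% in controls. Gnas was thus the only one of the 8 genes with knockouts lower in both fats and brown higher in both genotypes without overlap, a pattern of 1.27% of all genes that was chosen after its values were seen. Adra1a differed by 0.69 ± 0.38 in knockouts (adjusted p = 0.453, limma) and 0.92 ± 0.35 in controls (unadjusted p = 0.0329, adjusted p = 0.179, limma), with overlap in both.

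The other 6 genes had brown minus white differences between -0.50 (Adra2a) and 0.81 (Prkar2b) in knockouts and between -0.78 (Pde3b) and 0.36 (Prkaca) in controls, each with overlapping arrays. Without control brown sample 2-3, the control difference was 0.37 for Prkar2b (otherwise -0.24), 0.44 for Adcy3 (otherwise -0.19), 0.81 for Adrb1 (otherwise 0.31) and -0.37 for Pde3b. Without knockout white sample 2-3-4, the brown minus white difference in knockouts was -0.46 for Prkar2b (otherwise 0.81), -0.43 for Adcy3 (otherwise 0.25), -0.10 for Adrb1 (otherwise 0.53), -0.09 for Prkaca (otherwise 0.35) and -0.85 for Pde3b. The brown samples also differed from the white ones in their muscle markers, and the part of muscle in these differences was not tested. The knockout effect in brown minus that in white fat lay between -0.23 (Adra1a) and 1.05 (Prkar2b) over the 8 genes, with adjusted p = 1.0 for each in limma, where 0% of all genes were called. None of the 8 had an unadjusted p under 0.05 there, and 2.6% of all genes did. With 16 arrays 0 of 8 were called, and 4.08% of all genes, or 2.09% with the replicate block.

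The pathway beyond these genes was read from 12 lists holding 146 genes, of which 138 were on the array and 131 were tested. None was called in knockout against control in either fat, and neither were any other genes of the array. In white fat 22 of 131 were called without knockout sample 1, with 10.9% of all genes, and 2 of 131 without knockout sample 2-3-4, with 0.808% of all genes. The median difference was -0.15 in brown and 0.03 in white fat. At the gene level the smallest unadjusted p in white fat was that of Pde1c, a phosphodiesterase, at 2.08 ± 0.41 (adjusted p = 0.292, limma), with control arrays above background on 2 of 4. Ddc, a decarboxylase of catecholamine synthesis, was at -3.58 and -2.79 in the knockout brown samples against -4.37, -5.02 and -4.66 in the control brown samples. In white fat Ddc was at -0.91 and -2.44 in knockouts against -4.42 and -3.65 in controls. It differed by 1.5 ± 0.51 in brown and 2.36 ± 0.56 in white fat, with adjusted p = 0.620 and 0.394 in limma.

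The 5 genes of the lipolysis list that protein kinase A acts on or through (Lipe, Plin1, Abhd5, Pnpla2 and G0s2) all had lower knockout means, with medians of -0.43 in brown and -1.01 in white fat and 0 of 5 called. G0s2, an inhibitor of the lipase Pnpla2, differed by -0.97 ± 0.37 in brown and -1.69 ± 0.41 in white fat (adjusted p = 0.620 and 0.394, limma). Lipe, Plin1 and Pnpla2 are also on the adipocyte marker list, whose 16 genes all had lower knockout means in both fats. The 13 tested cAMP-responsive transcripts had medians of -0.25 in brown and -0.01 in white fat, with 0 of 13 called. Among them, Fos differed by -1.74 ± 0.47 and Nr4a1 by -0.79 ± 0.31 in white fat (adjusted p = 0.418 and 0.487, limma). Of the 15 other phosphodiesterases 12 had higher means in knockout white fat, with a median of 0.48, against 8 of 15 in brown fat, and 0 of 15 were called in either. Over all genes, 59.8% had lower knockout means in brown and 52.3% in white fat.

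Between brown and white fat of controls, 8 of the 131 pathway genes were called, 7 higher and 1 lower in brown, where 3.89% of all genes were called higher and 1.14% lower. In knockouts 1 of 131 was called, Adra1b, lower in brown, where 0.207% of all genes were called lower and 1.29% higher. Leaving out 1 sample at a time moved the number called to between 1 and 25 in controls, with 25 without either knockout white sample (11.3% of all genes each). In knockouts it lay between 0 and 21, with 21 without knockout white sample 2-3-4 (6.59% of all genes). Adra1b, the alpha-1B receptor, was at -2.43 and -2.04 in the knockout brown samples against -0.21 and -0.06 in the knockout white samples, a difference of -2.09 ± 0.26 (adjusted p = 0.0112, limma). In controls it was at -2.02, -2.60 and -2.30 in brown against 0.42 and 0.38 in white samples, a difference of -2.71 ± 0.24 (adjusted p = 0.00131, limma). It was called in controls under all 22 alternatives that were run.

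The genes called higher in control brown fat were the cyclase Adcy2 (5.39 ± 0.92), the protein kinase A inhibitor Pkia (3.82 ± 0.66), the phosphodiesterases Pde4d (2.59 ± 0.48) and Pde4a (1.63 ± 0.29), the alpha-2B receptor Adra2b (1.80 ± 0.37), the immediate early gene Nr4a1 (1.35 ± 0.28) and the incretin receptor Glp1r (1.33 ± 0.28). Their adjusted p-values in limma ran from 0.0230 for Adcy2 to 0.0435 for Glp1r. On the control white arrays Adcy2 was well above background on 3 of 4, Adra2b on 2 of 4 and Glp1r on 2 of 4. Adcy2 and Adra2b passed the filter on dim probes only through the brown groups, and Glp1r only through the control brown group. They could thus enter the fit only by being bright where they were then called higher. Without control brown sample 2-3, the calls of Adcy2, Pkia, Pde4d, Pde4a, Nr4a1 and Glp1r were lost, with adjusted p of 0.0890 to 0.153 in limma. Their differences were then 5.04 (Adcy2), 3.55 (Pkia), 2.44 (Pde4d), 1.47 (Pde4a), 1.26 (Nr4a1) and 1.34 (Glp1r), close to those with it. All 7 lost the call in at least 5 of the alternatives. The skeletal muscle markers were higher in the same brown samples, at means of 7.66 to 8.07 in controls against -3.41 to -2.56 in control white samples, and their part in these calls was not tested.

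**Figure D4:**
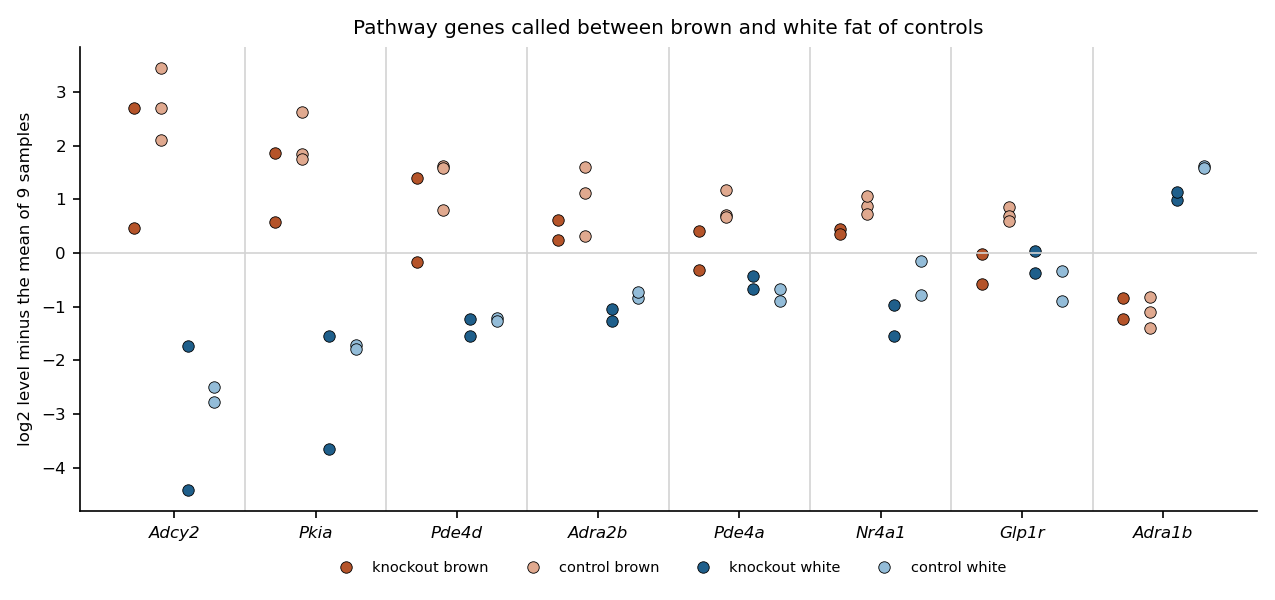
The 8 pathway genes called between brown and white fat of controls, as log2 level minus the gene's mean over the 9 samples (vertical axis). Points are samples, coloured by group. Adra1b is the only gene lower in brown fat, and its 5 brown samples lie well below its 4 white samples.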

How the data were processed

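The labels name the RNeasy kit of Qiagen for total RNA and Cy3 as the dye. Per the file headers, Agilent Feature Extraction 12.0.0.7 had subtracted background and spatial trend within each array, and the deposited files give the resulting intensity, linear and not scaled between arrays. In the authors' own table of values, 99.8% were within 1% of the mean scanner intensity of the probe, and array medians ran from 58.0 to 100.5.

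Outlier spots were dropped, the log2 intensity averaged per probe, and the 75th percentile of each array subtracted. RefSeq accessions named 28223 of 41174 probes through a GRCm38.p6 table. Gene coordinates are not given, since the headers name a different assembly for the array design. A probe was kept if at least 1 group had it well above background on its 4 arrays, and the brightest kept probe stood for its gene. Arrays of a group were 1 sample where the median absolute deviation of their difference over the scanner error was below 1. limma 3.58.1 in R 4.3.3 fitted a mean per group over 9 samples, with Benjamini-Hochberg adjustment per comparison, and was tested on simulated data. Alternatives covered samples, slide, replicate number, scaling, background, filter and probe summary. Normexp ran on the median signals of spot and background, in place of the mean signals first planned.

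Members and lists were chosen with earlier results of these data known. The rule named all members, Nr3c1, and from each pathway list up to 3 called genes with the largest difference or otherwise up to 2 with the smallest p, of which a selection is printed; some are not reported here. Naming the genes nearest to Adrb3 could not be applied, since Adrb3 is not analysed here. The number of arrays limits the precision.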

Additional observations from a re-analysis of the deposited data

How the results depend on the processing

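Members were called only with the 16 arrays as separate samples, with or without the replicate block, and Gnas and Adra2a kept their knockout signs in both fats under all 22 alternatives. With 16 arrays as separate samples, 2 members were called for knockout in brown fat (4 in white fat) and 1 between fats in knockouts (1 in controls). Pathway genes called were then 30 and 62 for knockout in brown and white fat, 37 and 63 between fats in knockouts and controls, and 3 for the difference of knockout effects. With the replicate number as a block on 16 arrays, 2 members and 30 pathway genes were called for knockout in brown fat, 6 and 65 in white fat, 1 and 35 between fats in knockouts, 1 and 68 in controls, and 1 pathway gene for the difference of effects. Same-numbered arrays of knockout brown and white fat correlated at 0.295 to 0.568 (3 of 4 best with their own number), and those of other group pairs at -0.534 to 0.411. Arrays 2 to 4 are 1 sample in each knockout group, which leaves 2 pairs, and the labels do not say that a number marks an animal. With the number as a block for the 9 samples' knockouts, added after seeing the data, no member was called. Between fats, 10 pathway genes were then called in knockouts, with 4.01% of all genes. In controls 20 were called, and the share of all genes is not given there.

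With the distinct sample as a random block, 1 pathway gene was called for knockout in white fat, 12 between fats in knockouts and 19 in controls; with slide as a block these were 2, 3 and 5. Leaving out both knockout samples of 3 arrays gave 7, 22 and 33. Between fats in knockouts, 3 were called with the authors' unscaled values, 3 with normexp, and 2 each with adipocyte centring, the mean of kept probes or quantile normalization. Between fats in controls, 5 were called with no filter, with normexp, or with probes above background on all 16 arrays.

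Sign changes follow, as log2 differences. With adipocyte centring the median knockout difference of all genes was 0.28 in brown and 0.97 in white fat, where it was otherwise -0.12 and -0.03. Under it, the knockout difference in brown fat was 0.29 for Adrb1, 0.035 for Adcy3, 0.011 for Prkaca and 0.044 for Adcy4. In white fat it was 0.68 for Adrb1, 0.35 for Adra1a, 0.21 for Adcy3, 0.42 for Pde3b, 0.093 for Prkar2b, 0.62 for Prkaca, 0.47 for Adra1b, 0.36 for Gng12, 0.012 for Grk5 and 0.21 for Nr4a1. Between fats in controls it was 0.050 for Adra2a, 0.26 for Adcy3 and 0.21 for Prkar2b. The authors' unscaled values gave 0.32 for Adrb1, 0.063 for Adcy3, 0.039 for Prkaca and 0.072 for Adcy4 in brown knockout fat, and between fats 0.27 for Pde3b in knockouts and -0.035 for Adrb1 in controls. Normexp gave -0.047 for Pde3b and -0.053 for Ptger2 in brown knockout fat, and 0.25 for Adcy3 between fats in controls. With 16 arrays, with or without the replicate block, Adrb1 was at 0.13 in brown knockout fat and Pde3b at 0.26 between fats in knockouts. With slide as a block, Adrb1 was at 0.011 and Akap4 at 0.10 in brown knockout fat, Adra2a at 0.58 and Pde3b at 0.35 between fats in knockouts, and Adra2a at 0.26 and Prkar2b at 0.36 in controls. Without both 3-array knockout samples, white knockout differences were 0.30 for Adrb1, 0.24 for Pde3b, 0.36 for Prkar2b and 0.067 for Prkaca. Between fats in knockouts they were then -0.071 for Adrb1, -0.23 for Adcy3 and -0.19 for Prkar2b. The cause of these changes was not tested.

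Leaving out 1 sample at a time gave these ranges. Knockout in brown fat: Adrb1 -0.61 to 0.37, Adcy3 -1.0 to 0.21, Pde3b -0.23 to 0.59 and Prkar2b -0.47 to 0.64. Knockout in white fat: Adrb1 -0.96 to 0.30, Pde3b -1.41 to 0.24, Prkar2b -2.19 to 0.36 and Prkaca -0.83 to 0.067. Between fats in knockouts: Adrb1 -0.097 to 1.16, Adcy3 -0.43 to 0.92, Pde3b -0.85 to 0.81, Prkar2b -0.46 to 2.08 and Prkaca -0.095 to 0.80. Between fats in controls: Adrb1 -0.17 to 0.81, Adcy3 -0.77 to 0.44 and Prkar2b -0.75 to 0.37. Pathway genes called ran from 0 to 22 for knockout in white fat, 0 to 21 between fats in knockouts, 1 to 25 in controls, and 0 to 2 for the difference of effects. A sample left alone in its group was assumed to vary like the other groups. The number of distinct samples, 2 or 3 a group, limits all of these comparisons.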
